A study of Mus musculus with 2 samples.

Results

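Lipid droplet and adipogenic genes were described in mouse retinal pigment epithelium (RPE), a pigmented sheet of cells behind the photoreceptors, grown as primary cultures. The set holds 10 genes: the perilipins Plin1, Plin2, Plin3 and Plin4, the droplet-fusion gene Cidec, the transcription factors Pparg and Cebpa, the lipase gene Lpl, the fatty acid carrier Fabp4 and the adipokine Adipoq. Every probe set annotated to 1 of these genes was taken, which gave 13 of the 45101 probe sets and 9 of the 18193 genes named by the array; Plin1 had no probe set among those analysed here. The genes were selected on values of these same arrays: the log2 ratio of interferon gamma (IFNg) over untreated, in which Plin4 is among the lowest of all genes. Everything that follows is therefore a description of them and no test supports it.

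The treated culture received IFNg, a cytokine of activated lymphocytes, for 24 h at 100 U/ml, and its counterpart was left untreated. Both came from the RPE of mice of a strain and age that the labels do not state. They had been grown for 14 days with 20% fetal bovine serum, were described as 95% cytokeratin-positive, and were kept overnight in serum-free medium before RNA was taken; how the 24 h of IFNg overlapped with that night is not stated. Each culture was hybridised to 1 array, so there is no replicate, differences carry no p-value, and precision is limited by the number of arrays.

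A lipid droplet is a store of triglyceride and sterol ester wrapped in a phospholipid monolayer. Perilipins coat that monolayer and regulate the access of lipases to the core. Plin2 and Plin3 are made in most cell types, whereas Plin1, Plin4, Cidec, Fabp4 and Adipoq are best known from adipocytes, in which the nuclear receptor PPAR gamma (Pparg) and C/EBP alpha (Cebpa) maintain each other's expression and drive many of the genes of fat storage. RPE cells take up and digest the lipid-rich tips of photoreceptors every day, and so handle a large flow of fatty acids.

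RefSeq gives 3 transcription start sites for Pparg and 1 for Plin4 in its promoter table of GRCm38.p6. These are the genes with the largest differences in the set, and the 250 bases before each start are shown so that the regulatory sequence can be read beside the signals. Each line runs 5′ to 3′ on the strand of the gene. Capitals mark matches, on either strand, to the nuclear receptor half-site AGGTCA, to its direct repeat AGGTCANAGGTCA that PPAR-RXR dimers bind, to the C/EBP-type motif TTGCNNAA or to the TATA core TATAA.
Plin4, chr17:56109783-56110032, minus strand: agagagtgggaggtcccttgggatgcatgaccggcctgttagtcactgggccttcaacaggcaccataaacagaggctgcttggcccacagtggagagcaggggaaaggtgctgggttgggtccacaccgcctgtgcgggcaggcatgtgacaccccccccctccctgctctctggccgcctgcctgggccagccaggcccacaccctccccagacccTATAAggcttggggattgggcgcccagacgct
Pparg first start, chr6:115360894-115361143, plus strand: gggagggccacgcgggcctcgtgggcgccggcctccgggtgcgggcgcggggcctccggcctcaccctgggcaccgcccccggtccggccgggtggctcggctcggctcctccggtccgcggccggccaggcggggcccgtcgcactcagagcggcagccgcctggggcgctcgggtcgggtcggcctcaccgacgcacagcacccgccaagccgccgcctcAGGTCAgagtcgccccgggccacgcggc
Pparg second start, chr6:115362099-115362348, plus strand: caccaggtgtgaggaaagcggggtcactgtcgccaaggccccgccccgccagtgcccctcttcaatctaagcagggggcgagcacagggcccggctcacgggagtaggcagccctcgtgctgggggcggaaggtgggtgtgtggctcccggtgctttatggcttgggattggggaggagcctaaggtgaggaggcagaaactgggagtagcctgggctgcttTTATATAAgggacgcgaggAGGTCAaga
Pparg last start, chr6:115421816-115422065, plus strand: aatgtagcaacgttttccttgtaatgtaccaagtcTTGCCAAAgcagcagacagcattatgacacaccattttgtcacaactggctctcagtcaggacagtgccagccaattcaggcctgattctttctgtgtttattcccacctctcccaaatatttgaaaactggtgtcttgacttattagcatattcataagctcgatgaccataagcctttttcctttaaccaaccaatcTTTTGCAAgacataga

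The window of Plin4 held 1 match, the TATA core 32 bases before the start. The first Pparg window held 1 half-site, 28 bases before the start, and the second held 1 half-site 9 bases before the start and 2 overlapping TATA cores. The last held 2 C/EBP-type motifs, 215 and 16 bases before the start. Among all 32851 windows of the table, 14.0% held the half-site, 0.0335% the direct repeat, 9.56% the C/EBP-type motif and 22.8% the TATA core. The table had windows for 8 of the 10 genes (11 windows), and the direct repeat matched in 0 of these 11. A match is a run of letters and not a measured site, and the absence of one says only that these letters are not in this window.

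Plin4, a perilipin that coats nascent lipid droplets in adipocytes, had a deposited signal of 62.9 in RPE with IFNg, against 327.9 in untreated RPE. The IFNg signal was 19.2% of the untreated one, a difference of 5.21-fold (log2 ratio -2.38, IFNg minus untreated). Both signals lay above the floor of 20.4, the pooled median signal of both arrays, which stands in for a detection call. Counting as measured the 12750 genes with at least 1 array above the floor, 4 had a lower log2 ratio, of which 3 were measured on both arrays. Plin4 has 1 probe set, so no second one on the array can be set beside it. In RNA from a whole culture, fewer cells of one type and less RNA per cell cannot be told apart.

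Pparg encodes the nuclear receptor that acts as master regulator of adipocyte differentiation. Its single probe set had signals of 27.8 with IFNg and 79.2 without, 2.85-fold lower with IFNg (log2 ratio -1.51). The IFNg signal was close to the floor of 20.4, where the share of background in a signal is not known. With the floor raised to the 75th percentile of the pooled signals (86.6), both arrays lie under it and no ratio remains. The ID of this probe set marks sequence shared between transcripts, so the 3 start sites are not told apart. A lower ratio was found for 81 genes, 0.635% of those measured.

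Cebpa, the partner of Pparg in adipocyte differentiation, had signals of 50.7 with IFNg and 79.0 without (1.56-fold lower, log2 ratio -0.64). This lay within 2-fold, and 15.7% of measured genes had a lower ratio.

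The perilipins with broad tissue distribution differed less. Plin2, the main droplet coat of cells other than adipocytes, had signals of 2078.2 with IFNg and 2708.0 without (1.30-fold lower, log2 ratio -0.38). Plin3, which moves from the cytosol onto new droplets, had 494.5 with IFNg and 713.0 without (1.44-fold lower, log2 ratio -0.53). Each has 1 probe set and each lay far above the floor on both arrays. The log2 ratio of Plin4 was thus 1.85 units below that of Plin3, with a like gap to Plin2. Cidec, whose protein joins droplets into larger ones, had signals of 1.5 with IFNg and 2.7 without, under the floor on both arrays, and has no ratio.

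**Figure D1:**
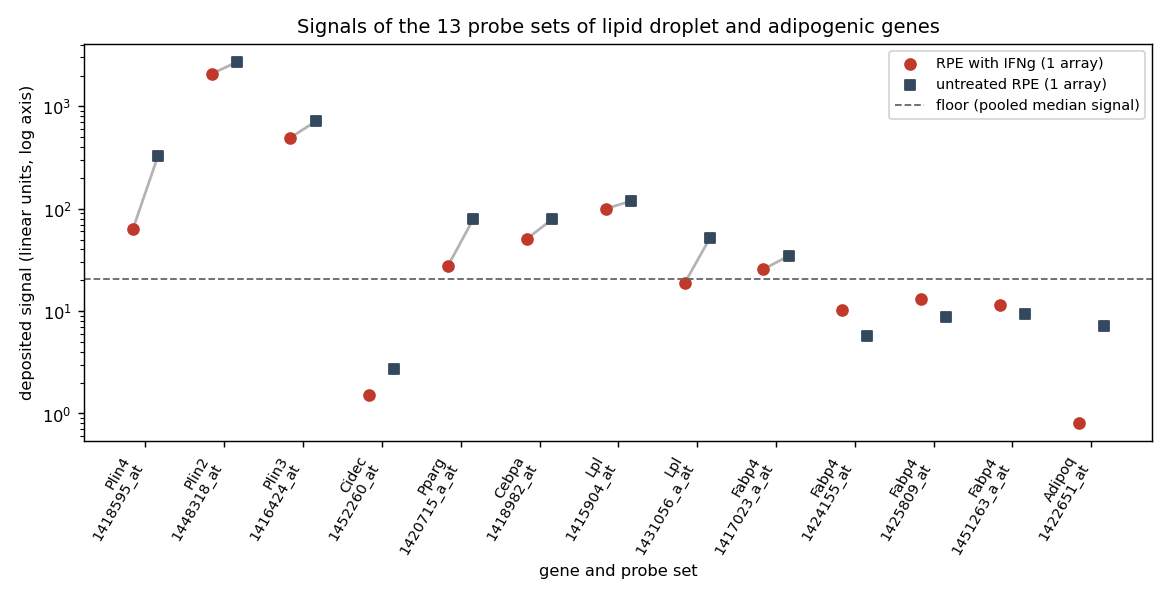
Deposited signals of the 13 probe sets (log axis, linear signal units) in RPE with IFNg (red circles) and untreated RPE (dark squares), 1 array each, with the floor of 20.4 dashed and lines joining the arrays where 1 or both lay above it. Plin4 (62.9 with IFNg, 327.9 without) has the steepest line; signals of different probe sets are not on a common scale and only the 2 points of one probe set can be compared.

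Lpl encodes lipoprotein lipase, which frees fatty acids from circulating triglyceride. Its brighter probe set had signals of 99.8 with IFNg and 118.9 without (1.19-fold lower, log2 ratio -0.25). A second probe set had 18.7 with IFNg, under the floor, and 51.3 without, which makes it at least 2.51-fold lower (log2 ratio -1.33 as a bound). The probe sets had the same direction and differed in size by over 1 log2 unit. By the rule that a gene takes its brightest probe set, Lpl counted as within 2-fold.

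Fabp4, the fatty acid carrier of adipocytes, macrophages and capillary endothelium, was near the limit of measurement. Its brightest probe set had signals of 25.6 with IFNg and 34.6 without (1.35-fold lower, log2 ratio -0.43). The other 3 probe sets lay under the floor on both arrays, at 10.2, 13.1 and 11.4 with IFNg and 5.7, 8.7 and 9.3 without, and their order carries no information. Adipoq, the gene for the adipocyte hormone adiponectin, had 0.8 with IFNg and 7.2 without, again under the floor on both arrays.

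By count, 7 of the 9 genes with a probe set were above the floor, all on both arrays. All 7 had a lower signal with IFNg, where 57.4% of all 12750 measured genes did. At least 2-fold lower were 2 (Plin4 and Pparg), where 4.48% of all measured genes were, and 0 were at least 2-fold higher, where 8.82% were. The remaining 5 had log2 ratios from -0.64 (Cebpa) to -0.25 (Lpl). The median over the 7 was -0.53, beside -0.12 over all measured genes. Since the genes were chosen with this contrast known, these shares are set side by side and nothing is read from them. The interquartile range of all measured genes was -0.48 to 0.37, a range that includes Plin2, Fabp4 and Lpl and leaves Plin3, Cebpa, Pparg and Plin4 below it. The only spread the design offers is between probe sets: log2 ratios of different probe sets of one gene had an SD of 0.44 (4422 genes). In size it is larger than the ratios of Plin2, Fabp4 and Lpl and smaller than those of Plin3, Cebpa, Pparg and Plin4. This SD is not the error of a repeated array, holds no difference between cultures and sets no limit of noise.

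**Figure D2:**
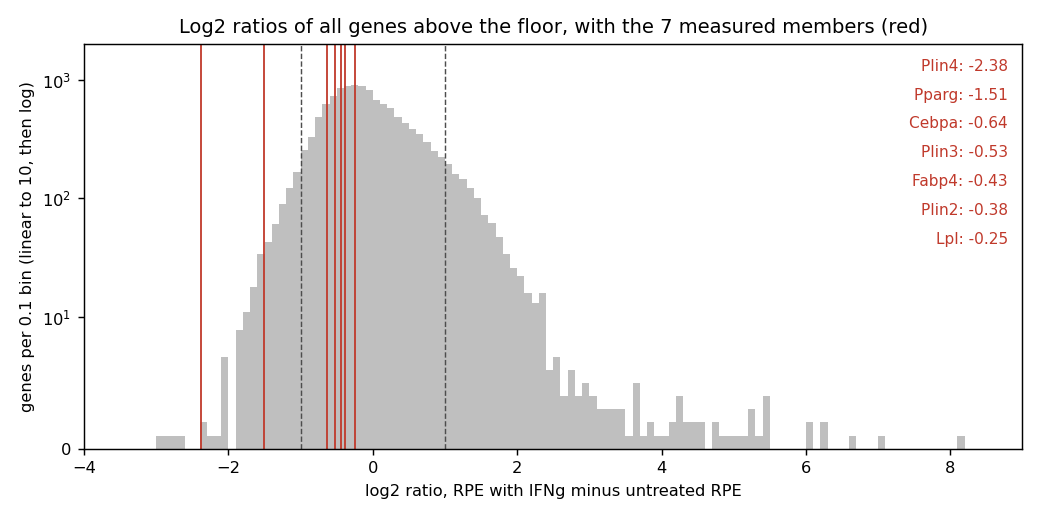
Distribution of log2 ratios (IFNg minus untreated) over the 12750 measured genes, in bins of 0.1, with genes per bin on an axis that is linear to 10 and logarithmic above. Red lines mark the 7 measured members and dashed lines 2-fold: Plin4 (-2.38) lies in the sparse left tail, Pparg (-1.51) on the left slope, and the other 5 within the bulk.

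Genes above the floor on both arrays were ranked by the Euclidean distance of their log2 signals to those of Plin4 over the 2 arrays. Gene-model, RIKEN and clone symbols were left out. The nearest were Vat1l (distance 0.31), Cnn1 (0.43), Susd2 (0.46) and Ccdc8 (0.51). Cnn1 encodes the smooth-muscle protein calponin and had signals of 82.8 with IFNg and 291.4 without. Likeness over 2 arrays says only that these values were close.

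The wider lipid pathway was read from 8 lists, in which 106 genes were measured. Outside the members 99 remained, of which 6 (6.06%) were at least 2-fold lower and 5 (5.05%) at least 2-fold higher, with a median log2 ratio of -0.12. The shares over all measured genes were 4.48% lower and 8.82% higher. Probe sets were taken by the same rule of the brightest one.

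In the list of droplet coat and growth genes, 2 of 13 measured genes were at least 2-fold lower and 0 higher, with a median log2 ratio of -0.20. Beside Plin4 this was Fitm2, an endoplasmic reticulum protein needed for droplet budding, with 59.8 with IFNg and 135.4 without (2.26-fold lower). Plin5, the perilipin of oxidative tissues, had 2.3 with IFNg, under the floor, and 23.5 without, just above it. Of 8 measured genes of lipolysis, 0 passed 2-fold in either direction. Pnpla2, the gene for the lipase that opens triglyceride breakdown, had 285.4 with IFNg and 261.9 without (log2 ratio 0.12).

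Triglyceride synthesis had 1 of 16 genes at least 2-fold lower and 1 higher, and a median of -0.48. The lower one was the acyltransferase gene Mogat2 (85.8 with IFNg, 173.9 without, 2.03-fold). The higher one was Acsl4, which activates arachidonic acid, at 197.6 with IFNg and 69.4 without (2.85-fold); its other probe sets were 3.30-fold and at least 2.92-fold higher. The genes for the enzymes of the last step, named after their values were seen, lay within 2-fold: Dgat2 had a log2 ratio of -0.98 and Dgat1 one of -0.75.

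For fatty acid uptake and binding, 1 of 11 genes was at least 2-fold lower and 1 higher. Angptl4, an inhibitor of lipoprotein lipase and a known target of PPARs, had 392.1 with IFNg and 846.2 without (2.16-fold lower). Its other probe set lay under the floor on both arrays, at 3.8 with IFNg and 4.7 without. Vldlr, a lipoprotein receptor, had 816.1 with IFNg and 237.8 without (3.43-fold higher). A second Vldlr probe set was 2.08-fold higher, and dimmer ones were 1.59-fold, 1.38-fold and at least 1.87-fold higher, with a further one under the floor on both arrays.

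Among 24 measured adipogenic regulators, Pparg was the only one at least 2-fold lower. The glucocorticoid receptor gene Nr3c1 was the only one higher, with 445.2 with IFNg and 129.9 without (3.43-fold), and its next brightest probe set was 4.58-fold higher. Dimmer Nr3c1 probe sets were 1.71-fold and at least 2.21-fold higher, and 2 more lay under the floor on both arrays. Cebpb and Cebpd, which act before Pparg in adipocyte differentiation, had log2 ratios of -0.04 and -0.17. The retinoid receptor Rxra, the partner of PPARs on DNA, had -0.36, and the related receptors Ppard and Nr1h3 had -0.64 and 0.12.

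Of 4 measured adipokines, Nampt, which makes a precursor of NAD, was higher, with 877.8 with IFNg and 169.5 without (5.18-fold). Its other probe sets were 5.01-fold and 3.45-fold higher. Lep and Retn, adipocyte hormone genes, were under the floor on both arrays. Of 15 genes of fatty acid synthesis only the elongase gene Elovl6 passed 2-fold, with 169.2 with IFNg and 71.4 without (2.37-fold higher). A dimmer Elovl6 probe set was 1.55-fold higher, and another lay under the floor on both arrays. Fasn, the fatty acid synthase gene, had a log2 ratio of -0.54, within 2-fold.

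The list of fatty acid oxidation genes had 3 of 15 genes at least 2-fold lower and 0 higher, with a median of -0.26. Acads had 98.1 with IFNg and 240.8 without (2.45-fold lower). Acaa2 had 308.1 with IFNg and 685.8 without (2.23-fold lower), with other probe sets 2.54-fold and 3.29-fold lower. Cpt2 had 245.1 with IFNg and 510.2 without (2.08-fold lower), while a dimmer probe set of it was 1.28-fold lower. Acads and Acaa2 encode enzymes of the oxidation cycle and Cpt2 the inner-membrane carnitine transferase. Acadm, a dehydrogenase gene of that cycle, had 356.5 with IFNg and 356.7 without.

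**Figure D3:**
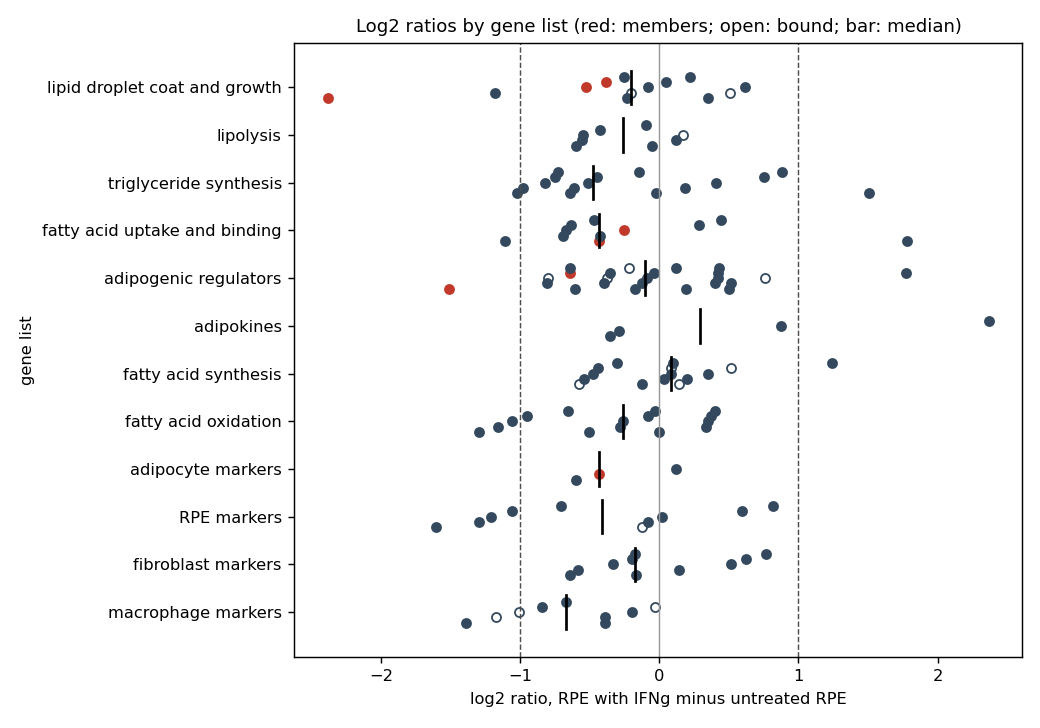
Log2 ratios (IFNg minus untreated) of genes above the floor in 8 lipid lists and 4 marker lists, with members in red, other genes dark, bounds open, medians as bars and 2-fold dashed. Plin4 and Pparg lie left of every other gene of their own lists, while Nampt, Vldlr, Nr3c1, Acsl4 and Elovl6 lie right of 2-fold.

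Marker genes were set beside these values. Of 9 adipocyte markers with a probe set, 6 (Adipoq, Lep, Retn, Cidec, Cidea and Ucp1) were under the floor on both arrays, and the summed signal of the 9 was 388.8 with IFNg and 402.1 without. Most of this sum was Pnpla2, which many cell types express, and the other 8 summed to 103.4 with IFNg and 140.2 without. The 3 measured markers were Pnpla2, Fabp4 and Lipe, and Lipe had 56.5 with IFNg and 85.4 without. The label adipogenic names the known role of the genes, and whether the cultures held adipocytes was not tested. Macrophages also express Pparg, Fabp4, Lpl and Plin2. Of all measured genes, 4.48% were at least 2-fold lower and 8.82% at least 2-fold higher, with a median log2 ratio of -0.12. Of 9 measured macrophage markers, 3 (Csf1r, Fcer1g and Laptm5) passed 2-fold in the lower direction and 0 in the higher, with a median log2 ratio of -0.67, and the summed signal of all 11 was 387.4 with IFNg and 715.4 without. Without Csf1r, the brightest, the other 10 summed to 309.9 with IFNg and 512.6 without. The ratios of Fcer1g (10.6 with IFNg, 46.0 without) and Laptm5 (8.7 with IFNg, 40.9 without) are bounds, with the IFNg array under the floor. Further probe sets measured on both arrays lay within 2-fold, at 1.47-fold and 1.22-fold lower for Csf1r and 1.14-fold and 1.46-fold lower for Laptm5. Other Laptm5 probe sets were under the floor on both arrays. Itgam and Aif1 were under the floor on both arrays. The part of this in the lower values of Pparg, Fabp4, Lpl and Plin2 was not tested.

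Of 10 measured RPE markers, 4 (Ttr, Tyrp1, Rdh5 and Rlbp1) were at least 2-fold lower and 0 higher, with a median of -0.41. The shares over all measured genes were 4.48% lower and 8.82% higher, with a median of -0.12. For Ttr the other probe sets were at least 1.47-fold, 1.63-fold and 2.27-fold lower. For Tyrp1 one was at least 2.74-fold lower and a dim one went the other way, at 25.7 with IFNg and 17.7, under the floor, without. The summed signal of all 13 was 4312.2 with IFNg and 4040.3 without, but this direction comes from the keratin gene Krt18 alone: the other 12 summed to 1866.3 with IFNg and 2649.9 without. Rpe65, Best1 and Dct, defining genes of RPE and pigment cells, were under the floor on both arrays, while Otx2, Tyr and Krt18 were above it. Fibroblast markers were above the floor in 10 of 10 genes and none passed 2-fold, with a median of -0.17 and summed signals of 54787.9 with IFNg and 58913.6 without. Of 4 measured endothelial markers 0 passed 2-fold, the median was -0.51, and Tie1, Vwf and Gpihbp1 were under the floor. The summed signal of the 7 endothelial markers was 102.6 with IFNg and 146.3 without. The part of these values in the results was not tested.

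As a check of the labels, the IFNg target Irf1 had 3391.1 with IFNg and 319.1 without, and Cd274, the gene for PD-L1 that the series concerns, had 419.5 with IFNg and 13.6 without. The ratio of the 3′ to the 5′ control probe set, a sign of RNA integrity, was 1.03 with IFNg and 0.91 without for Gapdh, and 1.38 with IFNg and 1.24 without for beta-actin.

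The direction of the ratios of the 7 measured members did not turn under any of the processing settings tried. For Fabp4 the settings could not show whether its probe sets differ in direction. Averaging set its dimmer probe sets to the floor on both arrays, where they carry no difference, and the other settings used its brightest one alone. Plin4 had log2 ratios from -2.46 to -1.92, of which -1.92 is a bound with a floor of 86.6 that lies above its IFNg signal. Pparg ranged from -1.59 to -1.12 over the settings that gave it a value. Lpl moved to -0.79 when its probe sets were averaged, and Fabp4 to -0.11. The second Lpl probe set came within 2-fold (-0.96) when 16 was added to each signal and no floor was set.

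**Figure D4:**
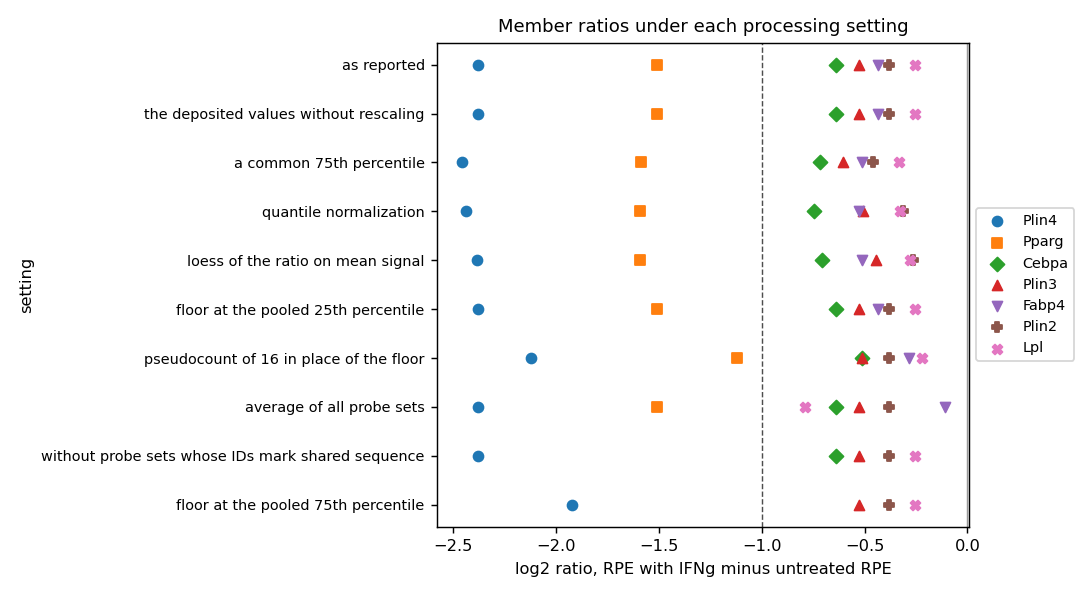
Log2 ratios (IFNg minus untreated) of the 7 measured members under each processing setting, with 2-fold lower dashed. Plin4 stays left of the dashed line in all 10 rows and Pparg in all 8 rows that gave it a value; with the floor raised to the 75th percentile the Plin4 value (-1.92) is a bound.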

How the data were processed

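Total RNA of 2 RPE cultures was copied into biotin-labelled RNA and hybridised, 1 array per culture, per the labels' protocols. The authors deposited a linear signal intensity per probe set, with a 2% trimmed mean of 99.6 on each array, as the values show; the labels do not name the summarisation, background correction or detection calls. Groups came from the sample titles.

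Leaving out 64 control probe sets, both arrays were brought to the same 2% trimmed mean, the pooled median (20.4) served as the floor for dimmer signals, and values were put on a log2 scale. A ratio with 1 array at this floor is a bound. Genes were named from the platform annotation where a probe set had 1 gene (34945 probe sets; 932 had several, 9160 none), and a gene took its brightest probe set. With 1 array per group no test was made. The members and lists were chosen with earlier results of these data known. Genes named were the members, up to 4 genes per list past 2-fold, the 4 genes nearest to Plin4, the label checks Irf1 and Cd274, and further list members to show values within 2-fold, chosen after their values were seen. Promoter sequences are from RefSeq (GRCm38.p6). The code was tested on simulated data. Alternatives changed scaling, floor, probe-set rule and threshold. Python 3.11.15, numpy 2.4.6, pandas 2.3.3, statsmodels 0.14.6 and matplotlib 3.10.9 were used.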

Additional observations from a re-analysis of the deposited data

How the results depend on the processing

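At least 2-fold lower were 2 members, and 1 (Plin4) with the floor raised to the 75th percentile, which leaves no ratio for Pparg, with probe sets whose IDs mark shared sequence left out, which removes the Pparg probe set, and at 3-fold. At 1.5-fold there were 3, with Cebpa added. Over all measured genes the share lower was 4.48% as reported, 2.1% with the raised floor and 4.46% without shared probe sets. It was 0.463% at 3-fold and 18.7% at 1.5-fold. The number at least 2-fold higher was 0 under every alternative, and the median log2 ratio of the members ranged from -0.64 to -0.46. Pathway genes at least 2-fold lower and higher numbered 8 and 5 of 106, where 4.48% and 8.82% of all measured genes were. With the floor set to the 25th percentile they numbered 16 and 10 of 119, where 12.4% and 13.6% of all genes were. At 1.5-fold they numbered 25 and 10 of 106, where 18.7% and 17.9% were, and at 3-fold 1 and 3, where 0.463% and 2.64% were. With probe sets averaged per gene, 6 were lower and 2 higher of 106, where 2.8% and 4.63% were. Fewer genes lie past a higher threshold by construction, and a lower floor admits dim signals. Averaging takes in dimmer probe sets, and with it both shares over all measured genes were smaller too. The cause was not tested. Fabp4 had no value with the floor at the 75th percentile or without shared probe sets, and Cebpa none with that floor. Signal near the floor limits Fabp4, Pparg and the second Lpl probe set, and Ttr, Tyrp1 and Rlbp1 among the RPE markers. No paired analysis was possible because each group has 1 array.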
